A study of Mus with 6 samples.

Results

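Txnip, 3 genes of its arrestin-domain family (Arrdc1, Arrdc3 and Arrdc4) and the partner transcription factors Mlx and Mlxip were followed in activated CD4+ T cells with and without VEGF-B neutralization. All 6 symbols were found among the 10995 protein-coding genes of the table. The set was chosen by the size of the fall of Txnip between anti–VEGF-B and IgG in these same libraries, and the other 5 genes were added as its relatives and regulators. Differences of the 6 genes in this contrast are therefore given as descriptions, with standard errors and intervals but no p. The cells were wild-type CD4+ naive T cells from mouse spleen, activated in culture for 3 days by anti-CD3 at 5 μg/mL and anti-CD28 at 2 μg/mL in the presence of 100 U/mL IL-2. Anti–VEGF-B or normal goat IgG was present at 1 μg/mL, and each treatment gave 3 RNA-Seq libraries. The labels do not say whether the 3 libraries of a treatment came from separate mice or cultures. Intervals and p-values therefore measure only spread between these libraries, which may be technical. In limma the spread of each gene was drawn toward that of genes of similar level. An interval can therefore be narrower or wider than the gene's own replicates would give.

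TXNIP is an α-arrestin. It binds thioredoxin, and it brings glucose transporters to the endocytic machinery, which lowers glucose uptake. Its gene is switched on when glucose 6-phosphate accumulates, through MondoA (the product of Mlxip) and its dimer partner MLX, which bind carbohydrate response elements in the Txnip and Arrdc4 promoters. In T cells Txnip is abundant at rest and is reduced on activation, when glucose use increases. The other α-arrestins are adaptors that hold NEDD4-family ubiquitin ligases on membrane proteins, and ARRDC1 also recruits TSG101 to bud vesicles from the plasma membrane.

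The deposited values carry no stated unit and were taken as FPKM, fragments per transcript length and per sequenced fragments, because they are not whole numbers and the methods name StringTie and Ballgown. Comparisons of level between genes rest on that reading, and the number of reads behind a value is unknown. Differences are on the log2(FPKM + 1) scale, anti–VEGF-B minus IgG, where differences of weakly expressed genes are compressed, and a gene was called at a limma p under 0.05 after Benjamini-Hochberg adjustment over the 8816 genes whose mean reached 1 FPKM. The median difference of these genes was -0.15. Of the T cell markers, 10 of 10 had values, and they summed to 576 to 625 FPKM under anti–VEGF-B and 622 to 750 under IgG. Cd4 was at 64.0 to 74.6 FPKM in the 6 libraries. Of these 10 markers, 4 were called lower and 0 higher, where 23.8% and 4.87% of all genes tested were. Il2ra, the IL-2 receptor α chain induced on activation, went from a mean of 117 to 58.3 FPKM (log2 difference -0.97, adjusted p = 0.00665 from limma). The others that fell were Thy1 (-0.75, adjusted p = 0.00768), Cd3e (-0.51, 0.0197) and Cd5 (-0.38, 0.0343 from limma). Cd3g (-0.43) and Cd44 (-0.18) were not called, nor were Lck, Cd4, Cd3d and Cd28, at 0.0041 to 0.12. Calls of the markers are not given here for other scalings or with single libraries left out. The part of these markers in the differences of Txnip and its relatives was not tested. Of the CD8 markers, Cd8a was at most 0.182 FPKM in any library, whereas Cd8b1 was at 2.27 to 4.51 FPKM. For B cell markers 1 of 6 had values (Cd79b, 0.665 to 1.34 FPKM), for NK cell markers 1 of 4 and for erythroid markers 0 of 6. The 3 myeloid markers with values (of 10) summed to 10.9 to 12.1 FPKM under anti–VEGF-B and to 12.4 to 27.0 under IgG. The highest sum was in IgG replicate 3, in which Lyz2 was at 16.4 FPKM against 3.26 to 4.19 in the other libraries. In RNA from bulk cells, fewer cells that express a gene and less RNA per cell cannot be told apart.

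Txnip (ENSMUSG00000038393, chromosome 3 of GRCm38, 96557957 to 96561883, plus strand) was at 65.0, 82.4 and 48.5 FPKM in IgG replicates 1 to 3 and at 27.5, 16.1 and 19.4 FPKM in anti–VEGF-B replicates 1 to 3. The lowest IgG library lay well above the highest anti–VEGF-B library. Means were 65.3 ± 17.0 and 21.0 ± 5.84 FPKM (SD, n = 3 each), a level 3.11-fold lower in the presence of anti–VEGF-B. The log2 difference was -1.59 (standard error 0.212, 95% interval -2.07 to -1.11), and -1.44 once the median over genes was subtracted. This was number 6 in the order of falls, between Tgtp1 at -1.60 and Tmem127 at -1.50. Without IgG replicate 3, the library with the highest myeloid sum, the difference was -1.79. Txnip lies inside the RefSeq locus of the long noncoding RNA Gm15441 (GRCm38.p6, 96555768 to 96566801). The libraries were stranded, but whether strand was used in the quantification is not given in the sources used here, so reads of the overlapping RNA could not be told apart.

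**Figure D1:**
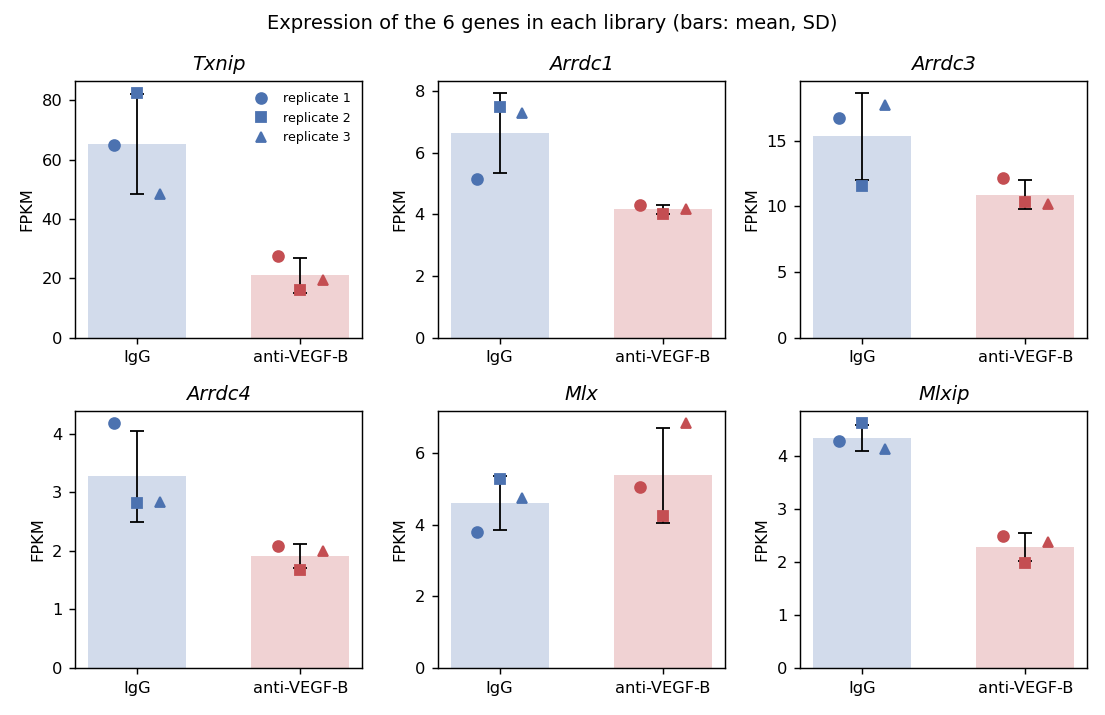
FPKM of the 6 genes by treatment, with 1 panel per gene, each with its own axis from 0. Bars are means with SD (n = 3), and circles, squares and triangles are replicates 1, 2 and 3; the treatments are separate for Txnip, Arrdc1, Arrdc4 and Mlxip and overlap for Arrdc3 and Mlx.

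Among the α-arrestin genes, Arrdc4 is the closest to Txnip in its known control, as both are MondoA targets. Arrdc4 (ENSMUSG00000042659, chromosome 7, 68736995 to 68749241, minus strand) was the least abundant of the 6, at 4.17, 2.81 and 2.83 FPKM under IgG and 2.07, 1.68 and 1.99 FPKM under anti–VEGF-B. The treatments did not overlap, and IgG replicate 1 stood above the other libraries. The mean was 1.71-fold lower under anti–VEGF-B, and the log2 difference was -0.54 (standard error 0.139, 95% interval -0.85 to -0.23), and it was -0.39 without IgG replicate 1. With a pseudocount of 0.1 FPKM in place of 1 it was -0.72.

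Arrdc1 (ENSMUSG00000026972, chromosome 2, 24925352 to 24935252, minus strand) was at 5.16, 7.47 and 7.29 FPKM under IgG and at 4.31, 4.02 and 4.16 FPKM under anti–VEGF-B. The anti–VEGF-B libraries lay close together and under all IgG libraries, of which replicate 1 was the lowest. The mean was 1.59-fold lower under anti–VEGF-B, and the log2 difference was -0.55 (standard error 0.131, 95% interval -0.85 to -0.25). Relative to the median of all genes it was -0.40.

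Arrdc3, whose product promotes the breakdown of β-adrenergic receptors, was the second most abundant of the 6 (ENSMUSG00000074794, chromosome 13, 80883384 to 80896042, plus strand). It was at 16.7, 11.6 and 17.7 FPKM under IgG and at 12.2, 10.4 and 10.2 FPKM under anti–VEGF-B. Here the treatments overlapped, because IgG replicate 2 lay under anti–VEGF-B replicate 1. The log2 difference was -0.44 (95% interval -0.77 to -0.10), and it was -0.62 without IgG replicate 2.

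The 4 α-arrestin genes together summed to 76.3 to 104 FPKM under IgG and to 32.2 to 46.0 FPKM under anti–VEGF-B. Txnip made up 63.6% to 79.0% of this sum under IgG and 50.1% to 59.7% under anti–VEGF-B. Its level was 2.74 to 7.12 times that of Arrdc3 under IgG but 1.56 to 2.26 times under anti–VEGF-B. Against Arrdc4 the ratio was 15.6 to 29.4 under IgG and 9.62 to 13.2 under anti–VEGF-B. These ratios within a library do not depend on a single scaling factor for the library, but a scaling that depends on level can change them. Quantile normalization moved the log2 difference of Arrdc4 from -0.54 to -0.30 and that of Txnip from -1.59 to -1.56. Txnip was chosen for its fall, so its lower ratio to its relatives in part follows from that choice.

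In the transcription factor pair the treatments were separate for Mlxip and overlapped for Mlx. Mlxip, which encodes the glucose-sensing MondoA (ENSMUSG00000038342, chromosome 5, 123394798 to 123457932, plus strand), was at 4.27, 4.61 and 4.13 FPKM under IgG and at 2.48, 1.98 and 2.37 FPKM under anti–VEGF-B. Replicates lay close together in each treatment and the treatments did not overlap. Means were 4.34 ± 0.243 and 2.28 ± 0.263 FPKM (SD, n = 3 each), and the log2 difference was -0.71 (standard error 0.104, 95% interval -0.94 to -0.47).

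Mlx, the dimer partner (ENSMUSG00000017801, chromosome 11, 101087277 to 101092207, plus strand), was at 3.79, 5.27 and 4.74 FPKM under IgG and at 5.06, 4.24 and 6.82 FPKM under anti–VEGF-B. The treatments overlapped, and only anti–VEGF-B replicate 3 lay above all IgG libraries. The log2 difference was 0.18 (95% interval -0.19 to 0.54), and 0.018 without that library. The ratio of Mlx to Mlxip ran from 0.887 to 1.15 under IgG and from 2.04 to 2.88 under anti–VEGF-B. The end of Mlx overlaps that of Psmc3ip in RefSeq, so reads there could be assigned to either gene.

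**Figure D2:**
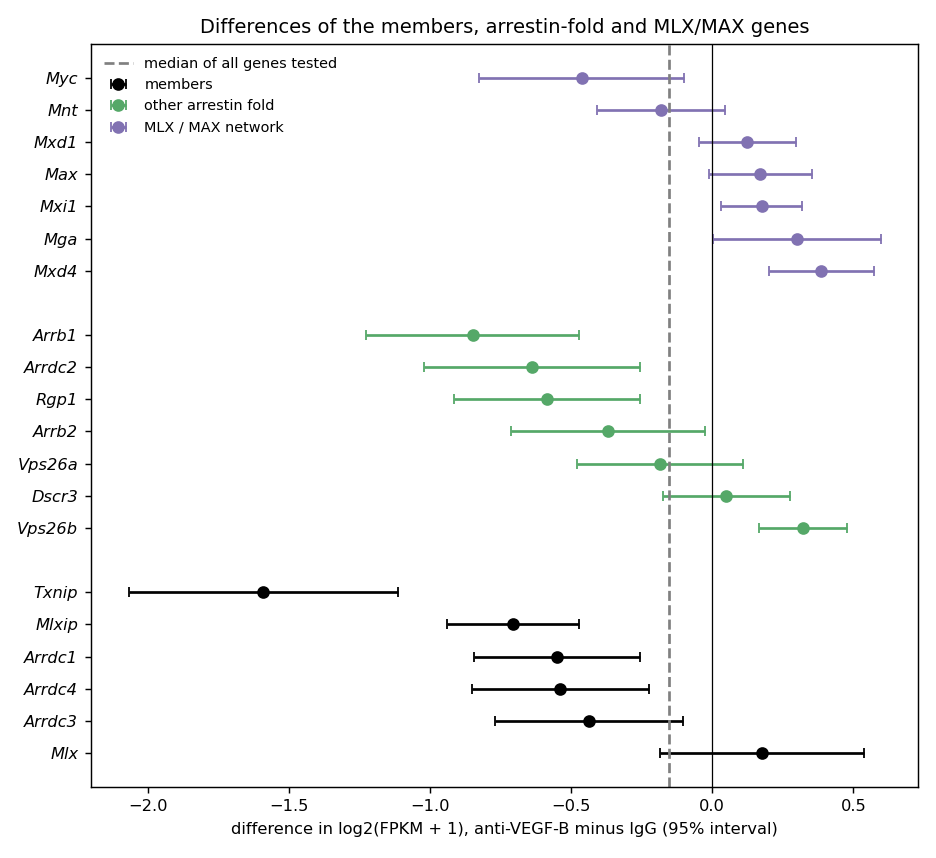
Difference in log2(FPKM + 1), anti–VEGF-B minus IgG, with 95% intervals from limma, for the 6 members (black), other arrestin-fold genes (green) and genes of the MLX and MAX network (purple); the dashed line is the median of all genes tested, at -0.15. Txnip is the lowest at -1.59. Above 0 lie Mlx, Vps26b, Dscr3, Mxd4, Mga, Mxi1, Max and Mxd1.

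Of the 6 genes, 4 were called and lower under anti–VEGF-B (Txnip, Mlxip, Arrdc1 and Arrdc4), where 23.8% of all genes tested were. The same 4 had treatments that did not overlap, under anti–VEGF-B lower, as did 38.5% of all genes tested. Since the set was picked from this contrast, nothing is read from these counts. The calls under other settings below come from the same contrast and are no support for the fall of Txnip, for which the set was chosen. All 6 passed the filter and were above 1 FPKM in every library. When the libraries were scaled by quantile normalization or by cyclic loess, only Txnip and Mlxip of the 6 were called, and under median centring Txnip, Mlxip and Arrdc1. Of the 8816 genes tested, 913, 938 and 807 were called lower under quantile normalization, cyclic loess and median centring. The difference of Txnip was -1.56, -1.57 and -1.39 under these scalings, that of Mlxip -0.47, -0.48 and -0.51, and those of Arrdc1, Arrdc3 and Arrdc4 lay between -0.35 and -0.24. Mlx was at 0.38 under each of them. Without anti–VEGF-B replicate 3, Arrdc1 and Arrdc4 were not called. Arrdc4 was also not called without anti–VEGF-B replicate 2, nor Arrdc1 without IgG replicate 2 or IgG replicate 3, whereas Arrdc3 was called without IgG replicate 2. With no moderation of the variance, 0 of the 6 had an adjusted p under 0.05, but neither did more than 12 of the 8816 genes tested.

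**Figure D3:**
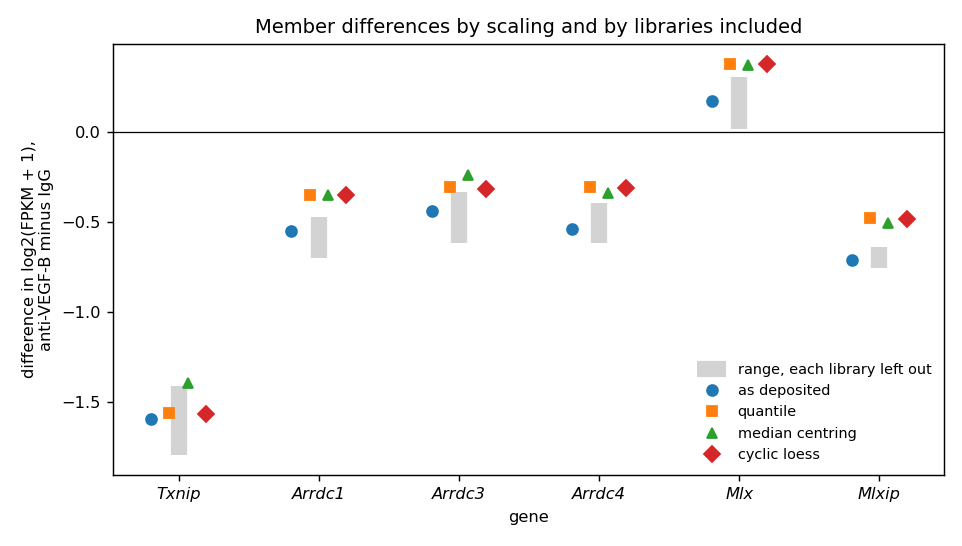
Difference in log2(FPKM + 1), anti–VEGF-B minus IgG, of the 6 genes with values as deposited (circles) and after quantile normalization (squares), median centring (triangles) and cyclic loess normalization (diamonds); grey bars span the fits without each library in turn. Txnip runs from -1.79 to -1.39 over these settings, while Mlx stays above 0.

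In level, Txnip was the highest and Arrdc3 the next in both treatments, and their ranges over libraries did not overlap within a treatment. Below them the order under IgG was Arrdc1, Mlx, Mlxip and Arrdc4, and each of these overlapped its neighbour in the order over the 3 libraries. With anti–VEGF-B, Mlx (mean 5.37 FPKM) stood above Arrdc1 (4.17), with overlapping ranges, and Mlxip (2.28) and Arrdc4 (1.91) followed and also overlapped. Txnip was at percentile 93.8 of the tested genes by its mean under IgG, and Arrdc4 at percentile 28.5.

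The profile of Txnip over the 6 libraries was most like that of Tgtp2, Tgtp1, Irgm2, Kcnk5 and Lif. Likeness was measured as the root mean square difference of log2(FPKM + 1) after centring each gene on its mean, and it ran from 0.192 for Tgtp2 to 0.275 for Lif, against a median of 0.782 over all other tested genes. The measure includes the difference between treatments, for which Txnip was chosen. These 5 genes had log2 differences from -1.60 (Tgtp1) to -1.37 (Lif), against -1.59 for Txnip. Distances to Txnip therefore largely follow the size of a gene's fall, and nothing further is read from them. Tgtp1, Tgtp2 and Irgm2 encode interferon-inducible GTPases, Kcnk5 a potassium channel and Lif a cytokine of the interleukin-6 family. Tgtp2 was at 22.5, 36.2 and 21.9 FPKM under IgG and at 10.6, 8.47 and 8.44 FPKM under anti–VEGF-B, so that, as for Txnip, IgG replicate 2 was the highest library. That library also had the highest median over all genes, 4.76 FPKM against 4.14 and 4.23 in IgG replicates 1 and 3, so its rank is not particular to these genes. Tgtp1 and Tgtp2 are near copies of each other, and reads could have been split between them. Among the members the distance to Txnip was least for Mlxip (0.504) and greatest for Mlx (0.943).

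**Figure D4:**
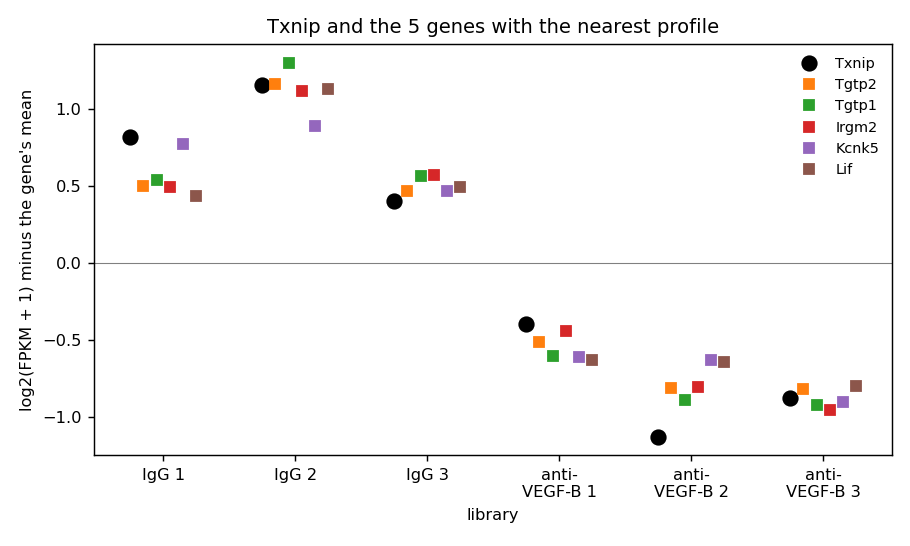
log2(FPKM + 1) minus the gene's mean over the 6 libraries, for Txnip (black circles) and the 5 genes with the least root mean square difference from it (coloured squares), by library. In all 6 genes the IgG libraries lie above 0 and the anti–VEGF-B libraries under 0, and IgG replicate 2 is the highest. IgG replicate 2 also had the highest median FPKM over all genes. The separation of treatments largely follows from choosing Txnip for its fall and the other genes for likeness to it.

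Other genes with the arrestin fold went in both directions. Of 7 tested, 3 fell (where 23.8% of all genes tested did), 1 rose and 3 did not pass. The median log2 difference was -0.37 against -0.15 for all genes. Arrb1, which encodes the receptor adaptor β-arrestin 1, fell from 5.93 ± 1.70 FPKM under IgG to 2.78 ± 0.348 under anti–VEGF-B (SD, n = 3 each), a log2 difference of -0.85 (adjusted p = 0.0102 from limma). Arrdc2, another α-arrestin gene, was at 1.89, 3.70 and 2.23 FPKM under IgG and 1.39, 1.16 and 1.25 FPKM under anti–VEGF-B (log2 difference -0.64, adjusted p = 0.0242 from limma). Rgp1, a Golgi trafficking gene, fell by 0.59 on the log2 scale (adjusted p = 0.0197 from limma). Neither was called under quantile or cyclic loess scaling. Arrdc2 also lost its call without anti–VEGF-B replicate 2 or 3, and Rgp1 without anti–VEGF-B replicate 3 or IgG replicate 2. Vps26b, a subunit of the retromer that recycles cargo from endosomes, rose from 21.7 ± 0.315 to 27.4 ± 0.484 FPKM (SD, n = 3 each, log2 difference 0.32, adjusted p = 0.0129 from limma), but was not called without anti–VEGF-B replicate 3. Across all genes tested 4.87% were called higher. Arrb2 had a log2 difference of -0.37 (adjusted p = 0.0963 from limma), which was -0.52 with a call without anti–VEGF-B replicate 2, -0.24 without anti–VEGF-B replicate 3 and -0.17 after median centring. Dscr3 had 0.049 (adjusted p = 0.731) and -0.038 without anti–VEGF-B replicate 1. Vps26a had -0.19 (adjusted p = 0.299 from limma), and 0.015 after median centring.

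In the MLX and MAX network, which shares MLX and MAX as dimer partners, 1 of 7 genes tested passed. Of all genes tested, 23.8% were called lower and 4.87% higher. Mxd4, a repressor that can dimerize with MAX or MLX, rose from 8.82, 9.07 and 9.60 FPKM under IgG to 11.7, 12.7 and 12.4 FPKM under anti–VEGF-B (log2 difference 0.39, adjusted p = 0.0129 from limma), a call lost without anti–VEGF-B replicate 3. The related repressor genes Mxd1 (0.12, adjusted p = 0.234), Mxi1 (0.17, 0.0684) and Mnt (-0.18, 0.189, above 0 after median centring) did not pass in limma, nor did Mga (0.30, 0.114). Max was at 43.0 ± 3.53 FPKM under IgG and 48.4 ± 1.85 under anti–VEGF-B (SD, n = 3 each, log2 difference 0.17, adjusted p = 0.137 from limma). Myc, the activating partner of MAX, had a log2 difference of -0.46 with treatments that did not overlap (adjusted p = 0.0581 from limma). It was -0.28 without IgG replicate 2, and was called without IgG replicate 1 (-0.59) and with a replicate block. After median centring 5 of the 7 genes were called higher (Mxd1, Mxi1, Mga, Max and Mxd4), and after either other scaling 2 (Mga and Mxd4). Of the 8816 genes tested, 1365 were called higher after median centring, 880 after quantile normalization and 852 after cyclic loess. Mxd3 was under the filter, and Mlxipl, the gene of ChREBP, was not analysed here.

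Of 9 tested genes of the NEDD4-family ubiquitin ligases and their adaptors, 1 fell, against 23.8% of all genes tested, and 8 did not pass. The median of the list was -0.042. Itch, which ubiquitinates TXNIP, was at 11.1 ± 1.17 FPKM under IgG and 11.0 ± 0.439 under anti–VEGF-B (SD, n = 3 each), with a log2 difference of -0.0018 and a 95% interval of -0.22 to 0.21. Nedd4l had -0.087 (-0.31 to 0.14), and both genes were above 0 under each of the 3 scalings. Ndfip1, an adaptor that activates these ligases, fell from 126 ± 16.2 to 91.0 ± 7.10 FPKM (SD, n = 3 each, log2 difference -0.46, adjusted p = 0.0143 from limma), but was not called after median centring or without anti–VEGF-B replicate 3.

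The ESCRT machinery buds vesicles and sorts ubiquitinated receptors. Among 16 of its genes tested, 1 fell and 1 rose, against 23.8% and 4.87% of all genes tested. The split was 1 lower and 6 higher after median centring, 1 and 3 after quantile normalization, and 1 and 2 after cyclic loess. Over the 8816 genes tested it was 807 and 1365, 913 and 880, and 938 and 852 under these scalings. Tsg101, the partner of ARRDC1, was at 7.51, 9.34 and 8.28 FPKM under IgG and 5.62, 6.16 and 5.60 FPKM under anti–VEGF-B (log2 difference -0.46, adjusted p = 0.0136 from limma), and was not called without anti–VEGF-B replicate 3. Vps37b, which encodes a subunit of the same ESCRT-I complex, rose from 85.9, 62.4 and 85.7 FPKM to 147, 167 and 162 FPKM (log2 difference 1.03, standard error 0.123, adjusted p = 0.00469 from limma). The median of the list was -0.026, and 0.17, 0.070 and 0.065 under the same 3 scalings.

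Thioredoxin, the protein TXNIP inhibits, is encoded by Txn1, which was at 131 ± 7.31 FPKM under IgG and 118 ± 9.27 under anti–VEGF-B (SD, n = 3 each). For Txn1 the log2 difference was -0.15 (95% interval -0.33 to 0.035), and 0.051 after median centring. Of 12 tested genes of the thioredoxin system 2 fell and 2 rose, against 23.8% and 4.87% of all genes tested. The peroxiredoxin genes, whose products reduce peroxides, went in both directions. Prdx1 fell from 20.4, 14.3 and 12.4 FPKM to 9.09, 8.35 and 7.46 FPKM (log2 difference -0.82, adjusted p = 0.00999 from limma), whereas Prdx5 rose by 0.51 (adjusted p = 0.00491) and Prdx6 by 0.63 on the log2 scale (adjusted p = 0.00876 from limma). Txnrd1, the cytosolic thioredoxin reductase gene, fell by 0.30 (adjusted p = 0.0372 from limma), a call lost under each of the 3 scalings and without any 1 library other than anti–VEGF-B replicate 2.

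The glucose transporter genes Slc2a1 and Slc2a3 were abundant, and neither passed with the values as deposited. Slc2a1, the gene of GLUT1, was at 295, 293 and 290 FPKM under IgG and at 322, 339 and 314 FPKM under anti–VEGF-B (log2 difference 0.15, 95% interval -0.0032 to 0.30). Slc2a3, that of GLUT3, was at 430, 472 and 459 FPKM and at 410, 398 and 363 FPKM (-0.22, interval -0.40 to -0.040, adjusted p = 0.0654 from limma). Hk2, a hexokinase gene whose product makes glucose 6-phosphate, had a log2 difference of 0.20 (adjusted p = 0.108 from limma). Median centring gave calls of higher Slc2a1 (0.35) and Hk2 (0.41) and left Slc2a3 at -0.017, whereas cyclic loess gave a call of lower Slc2a3 (-0.31). Of 10 tested genes of glucose transport and phosphorylation 2 fell and 0 rose, where 23.8% and 4.87% of all genes tested did. After median centring 1 of them was called lower and 3 higher, where 807 and 1365 of the 8816 genes tested were. G6pdx, the first enzyme of the pentose phosphate pathway, had a log2 difference of -0.59 (adjusted p = 0.0161) and G6pc3, a glucose 6-phosphatase, of -0.53 (adjusted p = 0.0310 from limma). G6pc3 was low, with means of 1.49 ± 0.373 FPKM under IgG and 0.729 ± 0.268 under anti–VEGF-B (SD, n = 3 each), and was not called under the 3 scalings or without anti–VEGF-B replicate 1, anti–VEGF-B replicate 2 or IgG replicate 1. The call of G6pdx was lost without anti–VEGF-B replicate 3.

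Other genes known as targets of MondoA or its relative ChREBP went in different directions. Of 11 tested, 2 fell and 2 rose, against 23.8% and 4.87% of all genes tested, and 7 did not pass. Klf10, a repressor of the Krüppel-like family, was at 11.3, 13.1 and 10.0 FPKM under IgG and at 6.95, 6.61 and 5.65 FPKM under anti–VEGF-B (log2 difference -0.75, standard error 0.116, adjusted p = 0.00574 from limma). Fasn, the gene of fatty acid synthase, also fell (-0.77, adjusted p = 0.0170 from limma), but was not called without anti–VEGF-B replicate 3. Bhlhe40, a helix-loop-helix repressor gene, rose from 390 ± 37.9 to 568 ± 8.95 FPKM (SD, n = 3 each, log2 difference 0.55, adjusted p = 0.00634 from limma). Klf11, named after its values were seen, was the other that rose (0.38, adjusted p = 0.0366 from limma), a call lost in 5 of the 6 fits that left out a library, all but that without IgG replicate 3. The median of the list was 0.20. Quantile normalization and cyclic loess each left 2 lower and 4 higher, and median centring 2 lower and 6 higher. Over the 8816 genes tested the split was 913 and 880, 938 and 852, and 807 and 1365 under these scalings.

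AMPK, the energy-sensing kinase that marks TXNIP for breakdown, was represented with its activator Stk11 by 6 tested genes, of which 2 fell. Of all genes tested, 23.8% fell. Prkaa1, a catalytic subunit, went from 4.53, 5.04 and 4.26 FPKM under IgG to 3.19, 2.97 and 3.03 FPKM under anti–VEGF-B (log2 difference -0.46, adjusted p = 0.0128 from limma) and was not called after quantile or cyclic loess normalization. Prkag1, a regulatory subunit, had a log2 difference of -0.47 (adjusted p = 0.0200 from limma). It was not called after median centring, nor without IgG replicate 2, IgG replicate 3 or anti–VEGF-B replicate 3.

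Of 14 tested genes linked to the Txnip promoter or protein, 2 fell and 3 rose, against 23.8% and 4.87% of all genes tested. The median of the list was 0.13. Foxo1, a transcription factor of resting T cells, rose from 31.8, 30.2 and 35.0 FPKM under IgG to 43.1, 50.2 and 43.5 FPKM under anti–VEGF-B (log2 difference 0.48, adjusted p = 0.00875 from limma). Nfyb, a subunit of the CCAAT-binding factor NF-Y, rose by 0.41 on the log2 scale (adjusted p = 0.0129 from limma), but was not called without anti–VEGF-B replicate 3. Another subunit gene, Nfya, had a log2 difference of -0.28 (95% interval -0.58 to 0.027), and -0.41 with a call without IgG replicate 2. The deacetylase gene Hdac1 fell from 39.7 ± 4.65 to 24.0 ± 1.35 FPKM (SD, n = 3 each, log2 difference -0.70, adjusted p = 0.00491 from limma). Hdac2 rose (0.26, adjusted p = 0.0356) and the acetyltransferase gene Ep300 fell (-0.30, adjusted p = 0.0475 from limma), both named after their values were seen. Ep300 was not called under any of the 3 scalings, and was -0.096 after median centring. It was called without anti–VEGF-B replicate 2 or IgG replicate 1 but not without any other library, and Hdac2 only without anti–VEGF-B replicate 1.

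**Figure D5:**
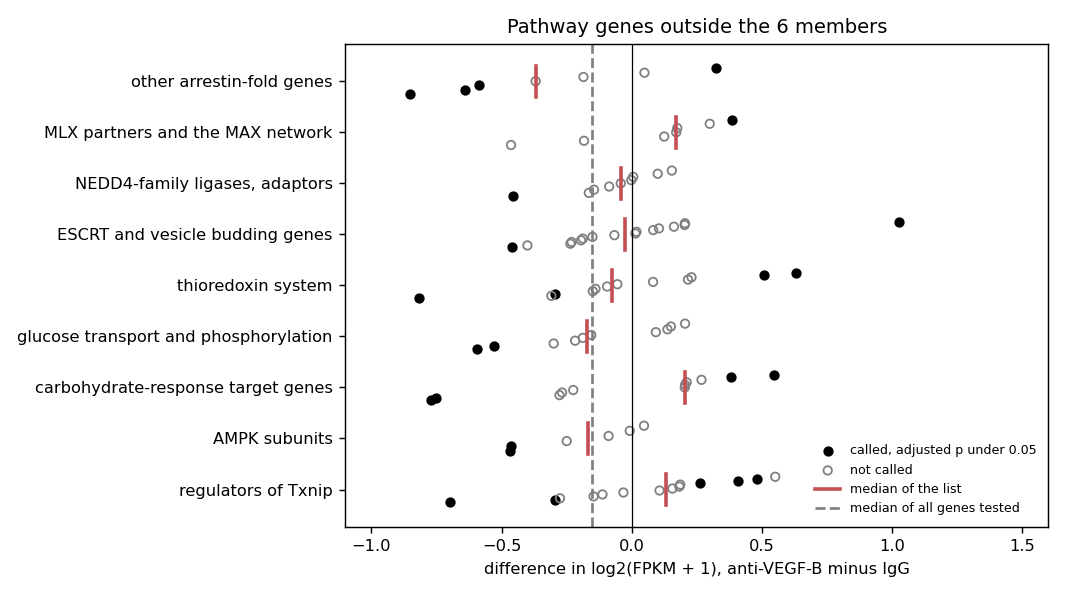
Difference in log2(FPKM + 1), anti–VEGF-B minus IgG, of each tested gene in the 9 pathway lists; filled points had an adjusted p under 0.05 in limma, red lines are list medians and the dashed line is the median of all genes tested (-0.15). Over all lists 15 of 91 genes were called lower and 10 higher, where 23.8% and 4.87% of all genes tested were. Vps37b is the highest at 1.03.

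Over the 9 lists together, 15 of 91 genes fell and 10 rose, where 23.8% and 4.87% of all genes tested did. The median of the 91 genes was -0.055. After median centring the ligase list held 0 lower and 2 higher, the thioredoxin list 1 and 4, the AMPK list 1 and 1, and the Txnip regulators 1 and 4. The split over all lists also moved with the scaling used. Quantile normalization gave 9 lower and 15 higher, cyclic loess 10 and 14, and median centring 10 and 31. The corresponding split over all genes tested went from 2099 lower and 429 higher to 913 and 880, 938 and 852, and 807 and 1365.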

How the data were processed

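RNA was measured in 6 libraries of activated CD4+ T cells, 3 with anti–VEGF-B and 3 with IgG. Reads were aligned to GRCm38 with hisat2 (2.1.0) and quantified with StringTie (1.3.3) and Ballgown (2.10.0), and the authors deposited 1 table of values per protein-coding gene, treated here as FPKM. The methods mention raw counts, but 99.5% of the deposited values have decimals and the unit is not stated, so no count model was used. Filters and scaling between libraries are not given in the sources used here. No common step was found in the low values (for values under 0.3 FPKM, no more than 2.62% of genes had the same ratio between libraries), so whole reads could not be recovered and depth is unknown. The 6 value columns matched the sample titles.

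limma 3.58.1 (R 4.3.3, empirical Bayes with trend, no covariate) was applied to log2(FPKM + 1) of genes whose mean reached 1 FPKM, with Benjamini-Hochberg adjustment, and the fit was tested on simulated data. The members and lists were chosen with earlier results of these data known. Named genes were the members, every gene of the arrestin-fold and MLX/MAX lists, the 3 called genes of lowest p in each other list, Itch, Nedd4l, Tsg101, Txn1, Txnrd1, Slc2a1, Slc2a3, Hk2, Klf10, Nfya and Foxo1, and the 5 profiles nearest to Txnip. Alternatives changed the scaling, pseudocount, filter, moderation, threshold, replicate block and libraries included. RefSeq loci came from GRCm38.p6. Protein and promoter sequences were not used here.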

Additional observations from a re-analysis of the deposited data

How the results depend on the processing

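The difference of Txnip stayed under 0 in the 16 alternatives and ran from -1.79 to -1.41 when each library was left out. The median difference of all genes turned to 0.0077 with quantile scaling, to 0.049 with median centring and to 0.0019 with cyclic loess. The number of members called lower was 2 with quantile scaling, with cyclic loess and with a filter at 5 FPKM (which removes Arrdc4, Mlx and Mlxip from the test), 0 with no moderation, and 2 to 4 when each library was left out. For pathway genes called lower, it was 9 with quantile scaling, with the filter at 5 FPKM and at an unadjusted p under 0.05 with a log2 difference over 0.5, 0 with no moderation (18 at an unadjusted p under 0.05), and 6 to 16 without each library. For those called higher, it was 31 after median centring, 1 with no moderation, 5 at the unadjusted limits and 5 to 12 without each library. Of the 8816 genes tested, 913, 938 and 998 were called lower with quantile scaling, with cyclic loess and at the unadjusted limits. Those called higher were 1365 after median centring and 123 at the unadjusted limits. For the other settings the calls over all genes are not split by direction here, so their counts have no background share. Nothing is read from the counts of members. Over all genes, 1331 were called with the filter at 5 FPKM, 12 with no moderation, 1121 at the unadjusted limits and 865 to 2469 without each library. Without anti–VEGF-B replicate 3 the counts were 865 genes, 2 members, 6 pathway genes lower and 5 higher, and without IgG replicate 2 the count of all genes was 1330. Fewer genes are tested with the filter at 5 FPKM, and the causes of these changes were not tested.

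Deviations of samples with the same replicate number had correlations of -0.030, 0.11 and 0.089 over genes. Those of samples with different numbers ran from -0.17 to 0.10. With 3 libraries per treatment these values cannot show whether the libraries were paired. With a replicate block 2578 genes were called, with 5 members and 18 pathway genes lower and 13 higher. Of 648 refits of the 41 named pathway genes tested, 553 stayed on the same side of the threshold, 81 lost the call, 24 of these with no moderation and 14 without anti–VEGF-B replicate 3, and 14 gained it. The depth of the libraries is unknown, so errors rest on the spread of replicates, which limma draws toward a trend over all genes tested.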
